A study of Sus scrofa domesticus with 4 samples.

Results

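Ion channels, ion pumps and calcium sensors are described here as transcripts of the anterior pituitary, sampled from 8 gilts, that is, young sows. They were taken by name: every probe of the array whose transcript accession carried a pig RefSeq symbol starting with 1 of 14 prefixes (KCN, CACN, SCN, CLCN, CLIC, VDAC, TRPC, TRPV, ATP1, ATP2, CALM, RYR, ITPR or S100). This gave 100 probes of 43603, for 48 genes of the 3029 with a RefSeq symbol on the array. No probe carried an ITPR symbol. In at least 4 of the 8 channels, 76 probes for 35 genes were well above background, and 24 probes were not, which left 13 genes with no probe to test.

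The gilts were mature Large White by Polish Landrace crosses. The pregnant group held 4 animals, naturally mated and found to carry conceptuses on days 15 to 16 of pregnancy, and the cyclic group held 4 animals on days 15 to 16 of the estrous cycle, staged by the look of their ovaries. Each of 4 two-colour arrays compared the RNA of 1 pregnant with that of 1 cyclic animal, so each array gave 1 independent ratio. The label fields put the pregnant animal in the dye Cy3 on arrays 1 and 3 and in Cy5 on arrays 2 and 4. The comparison asks which pituitary transcripts differ between early pregnancy and the matching days of the cycle.

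Hormone-secreting cells of the pituitary are electrically excitable. Voltage-gated calcium channels let calcium in when the membrane depolarises, potassium channels end that depolarisation, and the sodium pump keeps the gradients on which both depend. Calcium that has entered triggers hormone release, is read by EF-hand proteins such as calmodulin and the S100 family, and is cleared by the calcium pumps of the plasma membrane and the endoplasmic reticulum.

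Levels are normalized log2 intensities of single probes, which cannot be set against those of another probe. Ratios are log2 of pregnant over cyclic, given with the standard error of a limma fit over 4 arrays that also estimates a dye effect for each gene. That standard error can be smaller than the spread between the 4 arrays. Between 50.4% and 66.5% of probes were well above background in a channel and 0 spots were saturated. The 7 hormone genes that define the secretory cells were above background in all 8 channels. They stood 1 above and 6 below 0, with a median ratio of -0.31, and single arrays of TSHB ranged from -4.20 to 4.48. LHB, 1 of the 7, met the nominal rule given below, lower, a rule that 7.03% of all features met. With bulk tissue, fewer cells of a type and less RNA per cell cannot be told apart.

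Of the 35 genes tested, 12 stood above 0 and 23 below, so 34.3% stood above 0, beside 45.6% of all features. The median ratio was -0.036, beside -0.018 over all 18887 features. No member passed limma's Benjamini-Hochberg adjusted threshold of 0.05 (adjusted p between 0.647 and 0.987), where 0 of all features, 0%, did, and 1364 features had an unadjusted p below 0.05. A second rule, called nominal here, asked for a fold of 1.2 or more and an unadjusted p below 0.05. It held for 1 member, TRPC7, which was lower, against 7.03% of all features, 4.1% lower and 2.93% higher. The ratio was above 0 on all 4 arrays for 1 member (ATP2B1) and below 0 on all 4 for 3 members (KCNMA1, TRPC7 and TRPV4), where these patterns held for 6.4% and 7.42% of all features. For 0 members did all pregnant animals lie apart from all cyclic ones in intensity, against 1.88% of features. The 1 gene of 35 past the nominal rule is 2.86%, under the background, and none of these shares reads as a result about the members.

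Under the main processing, the fit gave narrow intervals for many of these genes. For 25 of the 35 genes the 95% interval of the ratio lay within a fold of 1.5 either way, and for 32 within a fold of 2 either way, beside 75.0% and 95.9% of all features. These intervals assume that the dye effect of a gene was the same on all arrays. The genes outside a fold of 2 were KCNG1, KCNAB1 and SCNN1G. Low intensities lie near the background offset, so a narrow interval of a dim probe does not bound the true difference. For the dim probes of TRPC7 and CLCN5 the intervals ran from -0.64 to -0.0021 and from -0.16 to 0.39. From the scanner software's processed signals the ratios of these genes were -0.92 and 0.44, outside those intervals.

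**Figure D1:**
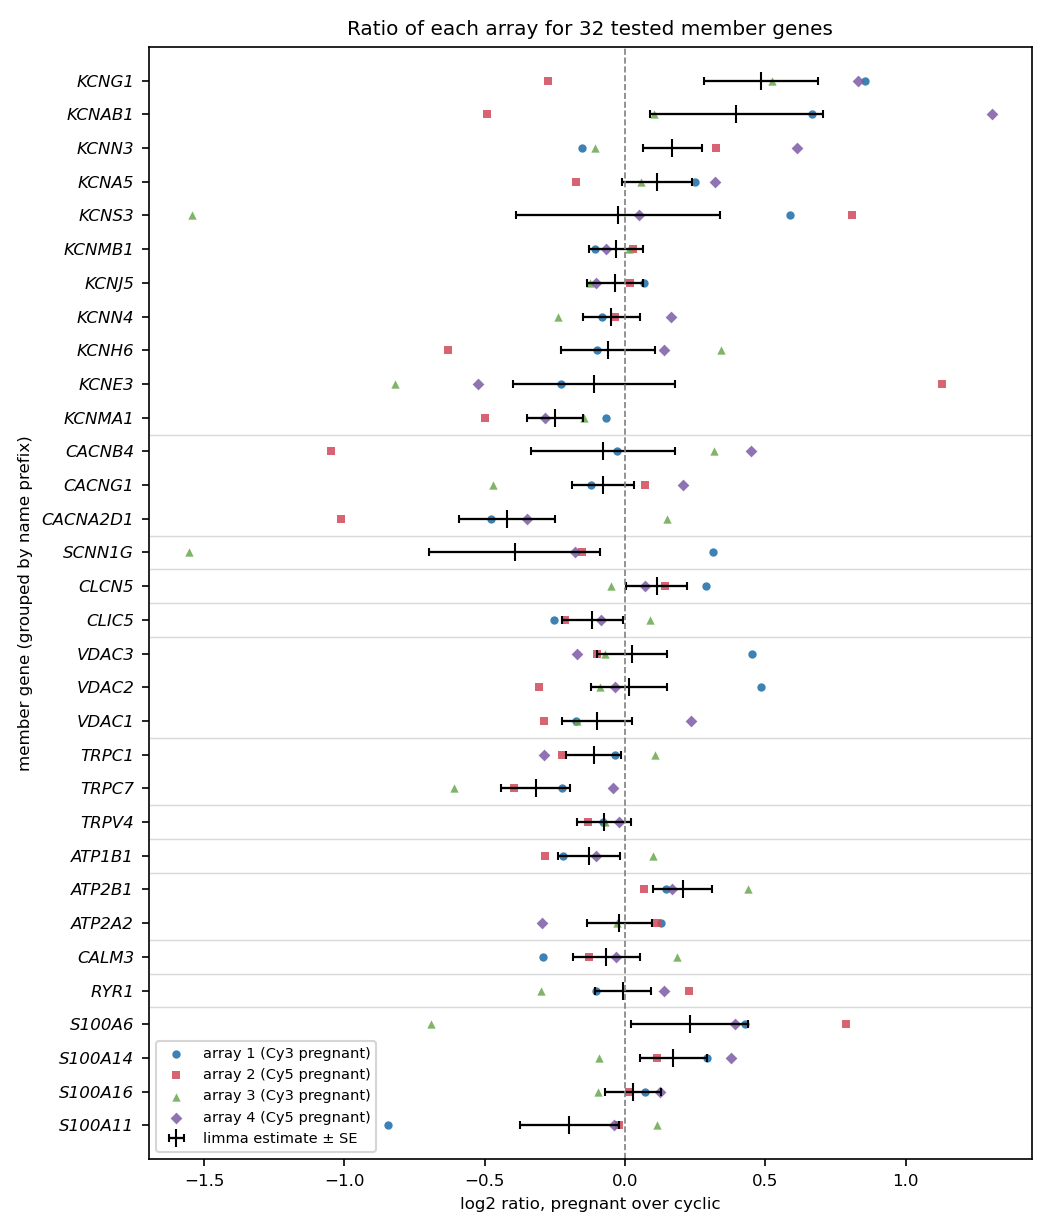
The log2 ratio of pregnant over cyclic (x axis) on each of the 4 arrays (coloured points) for 32 of the 35 tested genes (y axis, grouped by name prefix), with the limma estimate and its standard error in black. The points of most genes lie on both sides of 0, and KCNS3, SCNN1G, KCNE3, KCNAB1, CACNB4 and CACNA2D1 have an array beyond 1 in size.

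The canonical transient receptor potential channels (TRPC) are calcium-permeable cation channels opened downstream of phospholipase C. TRPC7, a member opened by diacylglycerol, had normalized log2 intensities of 6.54, 6.48, 6.70 and 6.64 in the pregnant animals of arrays 1 to 4 and of 6.77, 6.88, 7.31 and 6.68 in the cyclic ones. The cyclic animal of array 3 was the highest, and the groups met only in that the lowest cyclic value lay just under the highest pregnant one. The ratio stood at -0.32 ± 0.12 (limma, unadjusted p = 0.0490, adjusted p = 0.647), with single arrays at -0.22, -0.40, -0.61 and -0.043. This was a dim probe, well above background in 1 of 4 pregnant and 3 of 4 cyclic channels. It thus passed the filter mostly through the cyclic group, where it was higher, so its ratio is not independent of the filter. A second probe of TRPC7, which did not enter the fit, was well above background in 0 of 4 pregnant and 3 of 4 cyclic channels. Its mean log2 intensity was 6.37 in the pregnant and 6.81 in the cyclic animals, 1.36-fold apart. Its single arrays lay between -0.92 and -0.14. On that probe the highest pregnant animal was at 6.49 and the lowest cyclic one at 6.52. It read the same RNA samples as the first probe, and its difference was not tested.

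The TRPC7 ratio was below 0 under each of 12 alternatives in processing or in the arrays used and met the nominal rule under 6 of them. It was -0.92 from the scanner software's processed signals, where it met the rule. It missed the rule at -0.17 with background parameters from all spots, at -0.36 with median centring in place of loess and at -0.099 if the dyes had run one way on all arrays. It also missed it without array 2, at -0.23, without array 3, at -0.22, and without array 4, at -0.41. Fits without 1 array kept the dye term, so the array left alone in its dye orientation weighed as much as the others together. Only those others then gave the residual scatter, so calls from such fits, for any gene, rest partly on how close those arrays lay. TRPC1, the other tested member of the family, stood at -0.11 ± 0.10, with arrays between -0.29 and 0.11, and its second probe at -0.020. TRPC4 and TRPC5 were above background in 0 of 8 channels. TRPV4, an osmotically sensitive channel of the vanilloid family, stood at -0.076 ± 0.096, and its 4 arrays lay between -0.13 and -0.021. It was thus below 0 on every array while its 95% interval, from -0.32 to 0.17, included 0.

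**Figure D2:**
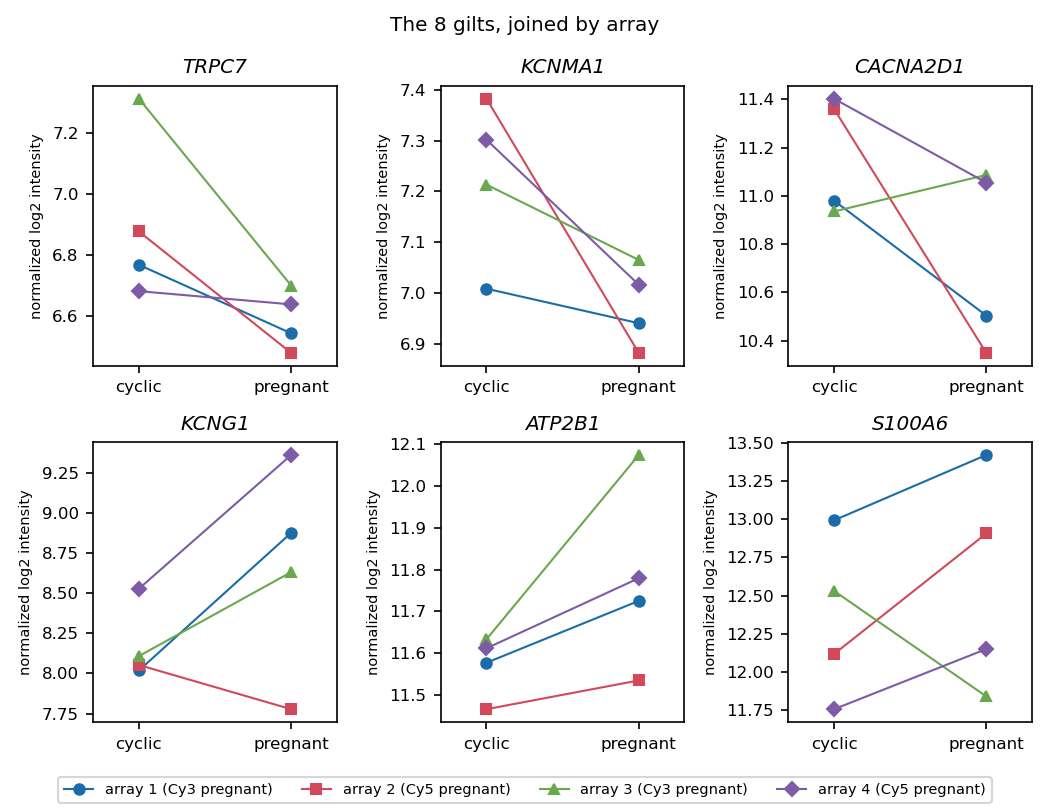
Normalized log2 intensity (y axis, a separate scale for each gene) of the cyclic and the pregnant animal of each array, joined by a line, for 6 genes. All 4 lines fall for TRPC7 and KCNMA1 and all 4 rise for ATP2B1, while array 3 goes against the other arrays for CACNA2D1 and S100A6 and array 2 for KCNG1.

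Of the calcium pumps, ATP2B1 and ATP2A2 were tested. ATP2B1 encodes the plasma membrane calcium ATPase PMCA1, which exports calcium from the cell. Its probe in the fit read 11.73, 11.54, 12.07 and 11.78 in the pregnant animals and 11.58, 11.47, 11.63 and 11.61 in the cyclic ones. Each pregnant animal was the higher of its array, by 0.15, 0.069, 0.44 and 0.17, although the groups overlapped. The ratio stood at 0.21 ± 0.11 (limma, unadjusted p = 0.107, adjusted p = 0.647), with a 95% interval from -0.063 to 0.47.

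All 5 probes of ATP2B1 had a ratio above 0, between 0.21 and 0.36. The highest of the other 4 was at 0.36 ± 0.11 (limma with every probe tested by itself, unadjusted p = 0.0168, adjusted p = 0.605), from arrays at 0.44, 0.067, 0.65 and 0.30. Of the 20 single array values of the 5 probes, only 1 was below 0, at -0.0037 on array 2. Array 3 was the highest for 4 of the 5 probes, and array 2 the lowest for 3. With the probes of a gene averaged before the fit, ATP2B1 stood at 0.28 and met the nominal rule. The probe of the fit did not meet it under the other alternatives, among them 0.13 without array 3 and 0.088 if the dyes had run one way. The probes share the same 8 RNA samples, so their likeness speaks to the measurement of this transcript and not to further animals. The probe at 0.36 was singled out after its values were seen.

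ATP2A2 encodes SERCA2, which pumps calcium back into the endoplasmic reticulum, and stood at -0.021 ± 0.12, with arrays at 0.13, 0.11, -0.027 and -0.30. Its 6 probes lay between -0.042 and 0.091, 3 on either side of 0. The interval of the probe in the fit ran from -0.32 to 0.28. ATP2A1, the skeletal muscle form SERCA1, was above background in 0 of 8 channels on both of its probes.

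The sodium pump is described through its beta subunit, ATP1B1, which brings the pump to the cell surface. ATP1B1 stood at -0.13 ± 0.11, with arrays between -0.28 and 0.099, and its second probe at -0.10. ATP1B4, a beta subunit relative mainly of muscle, was above background in 0 channels.

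Potassium channels were the largest group, with 15 genes of which 12 were tested, 4 above and 8 below 0. None met the nominal rule (0 of 12), against 7.03% of all features. KCNMA1 encodes the pore of the large-conductance BK channel, opened by calcium and voltage together. It read 6.94, 6.88, 7.07 and 7.02 in pregnant and 7.01, 7.38, 7.21 and 7.30 in cyclic animals, so each pregnant animal was the lower of its array while the groups overlapped through the cyclic animal of array 1. The ratio stood at -0.25 ± 0.10 (limma, unadjusted p = 0.0540, adjusted p = 0.647). With a smaller background offset it was -0.35 and met the nominal rule, and if the dyes had run one way it would be 0.14. Its interval ran from -0.51 to 0.0062. KCNMB1, the BK channel's beta subunit of smooth muscle, stood at -0.032 ± 0.097, with all arrays between -0.11 and 0.030.

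KCNG1, a silent subunit that forms channels only together with other potassium channel subunits, had the largest estimate among the members at 0.48 ± 0.20 (limma, unadjusted p = 0.0608, adjusted p = 0.647). The pregnant animals read 8.88, 7.78, 8.63 and 9.36 and the cyclic ones 8.02, 8.05, 8.11 and 8.53. On arrays 1, 3 and 4 the pregnant animal was higher by 0.86, 0.52 and 0.83, and on array 2 it was lower, at -0.28. The ratio was 0.21 without array 4, 0.28 with its probes averaged and 0.76 without array 2, where it met the nominal rule. It met that rule under 3 of 13 alternatives, also at 0.29 with background parameters from all spots and at 0.55 with a background offset of 10. Its other probe stood at 0.076, with arrays at 0.11, -0.12, -0.030 and 0.34, smaller in size and again lowest on array 2. KCNS3, another silent subunit, had the widest spread of all members: the arrays were at 0.59, 0.81, -1.54 and 0.048, and the estimate was -0.025 ± 0.36. Without array 1 it was -0.56 and met the nominal rule, with array 3 still in the fit, and without array 3 it was 0.51.

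KCNAB1, a cytoplasmic beta subunit of Kv1 channels, stood at 0.40 ± 0.31, with arrays at 0.67, -0.49, 0.10 and 1.31, and it ranged from -0.054 without array 4 to 0.85 without array 2, past the nominal rule only in the latter. KCNA5, the Kv1.5 subunit, stood at 0.11 ± 0.13 on its brightest probe, while its second probe stood at -0.29 ± 0.11 (limma with every probe tested by itself, unadjusted p = 0.0417, adjusted p = 0.605) and was below 0 on 4 of 4 arrays. The 2 probes of KCNA5 thus differed in sign, and their average was -0.088. KCNE3, an accessory subunit, stood at -0.11 ± 0.29, with array 2 at 1.13 against -0.23, -0.82 and -0.52 on arrays 1, 3 and 4. Leaving out array 4 or array 3 turned it to 0.30 or 0.037, and leaving out array 2 gave -0.52, past the nominal rule. Its second probe stood at -0.045 with no array beyond -0.14 or 0.090.

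Of the remaining potassium channels, KCNN3 and KCNN4, which encode small- and intermediate-conductance calcium-activated channels, stood at 0.17 ± 0.10 and -0.048 ± 0.10. KCNN3 followed the dye, red exceeding green on all 4 arrays, and it would stand at -0.30, past the nominal rule, if the dyes had run one way. KCNJ5, an inward rectifier gated by G proteins, stood at -0.036 ± 0.10 with all arrays between -0.12 and 0.068. KCNH6, an Erg-type channel, had arrays between -0.63 and 0.34 and an estimate of -0.062 ± 0.17. KCNA2, KCNIP1 and KCNJ2 were each above background in 1 channel, a cyclic one.

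Voltage-gated calcium channels were represented by auxiliary subunits, and their pore-forming subunits were not analysed here. CACNA2D1, the alpha2delta subunit that carries channels to the cell surface, read 10.50, 10.35, 11.09 and 11.05 in the pregnant and 10.98, 11.36, 10.94 and 11.40 in the cyclic animals. The pregnant animal was lower on arrays 1, 2 and 4 and higher on array 3, and the groups overlapped. The ratio stood at -0.42 ± 0.17 (limma, unadjusted p = 0.0546, adjusted p = 0.647). It was -0.26 without array 1 and -0.26 without array 2. It met the nominal rule without array 3, at -0.58, without array 4, at -0.59, and with no filter, at an unchanged -0.42. It would be 0.26 if the dyes had run one way. Its second probe stood at -0.054, with array 2 lowest on both. CACNB4, a beta subunit, stood at -0.077 ± 0.26, with array 2 at -1.05 and arrays 3 and 4 at 0.32 and 0.45, so the estimate was 0.30 without array 2 and -0.45 without array 4, past the nominal rule only in the latter. CACNG1, the gamma subunit of skeletal muscle, was well above background in 8 of 8 channels and stood at -0.078 ± 0.11.

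Sodium and chloride channels had few members. SCNN1G, the gamma subunit of the epithelial sodium channel ENaC, read 11.69, 11.56, 11.07 and 10.95 in pregnant and 11.37, 11.71, 12.62 and 11.12 in cyclic animals. The cyclic animal of array 3 stood above the other 7, and that array was at -1.55 against 0.31, -0.15 and -0.18 on arrays 1, 2 and 4. The estimate of -0.39 ± 0.31 became 0.074 without array 3 and -0.86 without array 1, where it met the nominal rule. SCNN1A, the alpha subunit of ENaC, was above background in 2 channels. CLCN5, an endosomal chloride and proton exchanger, stood at 0.11 ± 0.11, with arrays between -0.050 and 0.29, from a probe above background in 6 channels. CLIC5, a chloride intracellular channel protein tied to the cell cortex, stood at -0.12 ± 0.11, and its other tested probes stood at -0.090 and 0.11.

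The voltage-dependent anion channels (VDAC) form the metabolite pores of the outer mitochondrial membrane. VDAC1, VDAC2 and VDAC3 stood at -0.10 ± 0.12, 0.014 ± 0.14 and 0.027 ± 0.12. VDAC2 and VDAC3 resembled each other by array, with array 1 highest at 0.48 and 0.45 and the other arrays between -0.31 and -0.034. All 6 probes of VDAC3 had their highest ratio on array 1, between 0.11 and 0.91. For each of the 3 genes the 95% interval lay between -0.42 and 0.36.

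**Figure D3:**
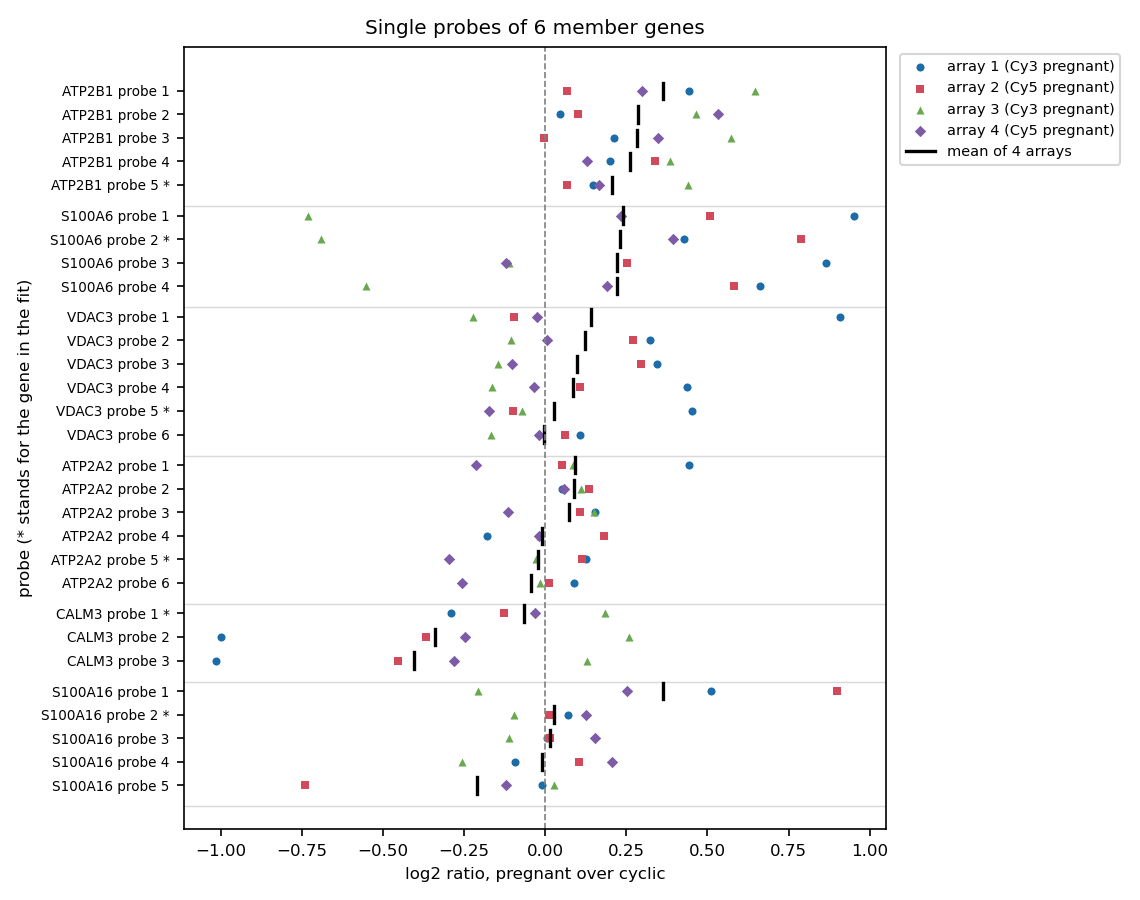
The log2 ratio of pregnant over cyclic (x axis) of each probe (rows) of 6 genes on the 4 arrays (coloured points), with the mean of the 4 arrays as a black bar. The 5 bars of ATP2B1 and the 4 bars of S100A6 lie above 0, while the bars of ATP2A2 and S100A16 lie on both sides.

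Calmodulin, the EF-hand sensor that passes the calcium signal to kinases, phosphatases and channels, is encoded by several genes and is described through CALM3. CALM3 stood at -0.066 ± 0.12, with other probes at -0.34 and -0.40 that were near -1 on array 1, at -0.999 and -1.01. The 3 probes of CALM3 thus shared a sign but not a size.

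S100 proteins are small EF-hand proteins, several of which mark particular cell types. S100A6, calcyclin, read 13.42, 12.91, 11.84 and 12.15 in pregnant and 12.99, 12.12, 12.53 and 11.76 in cyclic animals. The pregnant animal was higher on arrays 1, 2 and 4 and lower on array 3, and the values of both groups spanned much the same range. The ratio stood at 0.23 ± 0.21, and all 4 probes gave nearly the same ratio, between 0.22 and 0.24, while array 3 was below 0 on each of them. It was -0.049 without array 1 and 0.51 without array 3, where it met the nominal rule, and if the dyes had run one way it would be -0.36. S100A11, which binds annexins, stood at -0.20 ± 0.18, with array 1 at -0.85 and the other arrays between -0.040 and 0.12, and its estimate was 0.042 without array 1 and -0.44 without array 3, past the nominal rule only in the latter. S100A14 stood at 0.17 ± 0.12, with arrays between -0.091 and 0.38. S100A16 stood at 0.028 ± 0.099, and its 5 probes ran from -0.21 to 0.36, 3 of them between -0.0094 and 0.028.

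S100A8 and S100A9, the calprotectin subunits of neutrophils and monocytes, and S100A12, which the same cells make, were above background in 2, 3 and 3 channels, 1 of them pregnant for each gene. S100G, the calbindin of intestine and uterus, was above background in 0 of 8 channels on both probes. S100B, the usual marker of folliculostellate cells, was not analysed here. Of 9 listed markers of those cells, S100B among them, 5 were tested, with 0 past the nominal rule, against 7.03% of all features. They stood 3 above and 2 below 0, from -0.28 for KRT8 to 0.26 for ALDOC, with a median of 0.0019. The log2 of their summed intensities lay between 15.84 and 16.46 in the pregnant and between 15.97 and 16.51 in the cyclic animals. Bright probes weigh most in such a sum. Of 8 granulocyte markers, S100A8, S100A9 and S100A12 among them, 4 were on the array and 1 was tested, LTF, which did not pass. LTF stood at 0.19 ± 0.10, with arrays between 0.022 and 0.30. Its ratio was thus above 0 on all 4 arrays, as for 6.4% of all features. The part of either cell type in the S100 values was not tested.

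RYR1 encodes the ryanodine receptor of skeletal muscle, a calcium release channel. It stood at -0.0086 ± 0.10 from a probe above background in 1 pregnant and 3 cyclic channels, its second tested probe stood at 0.011, and the other 2 probes were above background in 0 channels. With CACNG1 and ATP2A1 it is known mainly from muscle. Of 8 skeletal muscle markers 4 were tested, all below 0, where 45.6% of all features stood above 0. CKM alone of them met the nominal rule, lower, a rule that 7.03% of all features met. It stood at -0.42 ± 0.16 (limma, unadjusted p = 0.0424, adjusted p = 0.647). The log2 of the summed intensities of the 4 markers lay between 12.49 and 13.20 in the pregnant animals. In the cyclic ones it lay between 12.80 and 13.40, and bright probes weigh most in such a sum. The part of muscle tissue in these values was not tested.

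Across the members, 18 genes had more than 1 probe above background, and for 11 of them all probes shared 1 sign. Tested probe by probe, 34 of the 76 probes stood above 0 and 42 below, and 3 met the nominal rule (the ATP2B1, KCNA5 and TRPC7 probes above), beside 7.85% of all probes tested that way. Ratios that followed the dye on all 4 arrays were seen in 3 genes with red over green (CACNG1, KCNN3 and RYR1) and in 2 with green over red, against 11.96% and 8.06% of all features.

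**Figure D4:**
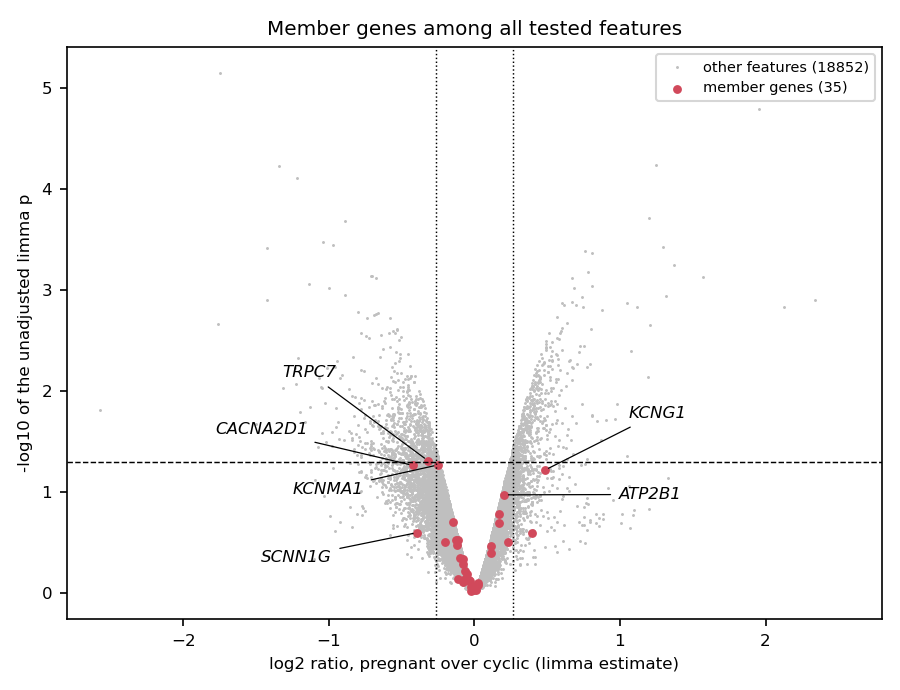
The limma estimate of the log2 ratio (x axis) against the negative log10 of its unadjusted p (y axis) for the 35 member genes (red) and the 18852 other features (grey). The dashed line marks an unadjusted p of 0.05 and the dotted lines a fold of 1.2, and TRPC7 alone among the members lies beyond both.

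Related genes outside the name prefixes were read from lists. Of 50 other genes of calcium handling, such as calcineurin, calmodulin kinases, STIM1 and ORAI1, 18 were tested, 8 above and 10 below 0, with a median of -0.024 and 0 past the nominal rule. STIM1, the sensor of the endoplasmic reticulum's calcium store, stood at -0.11 ± 0.10, and ORAI1, the channel it opens, at -0.13 ± 0.12. CALR, the calcium-binding chaperone calreticulin, had the lowest p of that list at -0.51 ± 0.27 (limma, unadjusted p = 0.113, adjusted p = 0.647), with arrays at -1.16, -1.01, -0.047 and 0.17. Of 50 other channel and pump genes 4 were tested, 1 above and 3 below 0, and 0 met the nominal rule. That rule was met by 7.03% of all features.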

How the data were processed

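Scans of 4 two-colour arrays passed through Feature Extraction 10.7.3.1 (Agilent) before they were deposited. Those deposited files hold, for both channels, median foreground and background intensity and a processed intensity. In the value table that the authors supplied, the log2 ratios equalled log2 of processed red over green within 0.001 for all 43553 probes spotted once, turned on arrays 1 and 3. Its medians were 0.150, -0.0102, 0.0650 and -0.0726, so no further centring was found. The labelling text names 1 dye orientation. The label fields, which that table follows, were used.

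Here, in R 4.3.3 with limma 3.58.1, background was corrected by normexp (offset 50, parameters without spots marked as outliers), ratios were normalized by loess (span 0.3, control spots at weight 0), and 26 to 63 outlier spots per array were dropped, none of a member. The mean foreground was not used. Probes well above background in 4 of 8 channels were kept, and the brightest probe stood for a gene. limma's lmFit and eBayes with a dye term gave Benjamini-Hochberg adjusted p over 18887 features. Intensities of single animals were also Aquantile normalized. Low intensities lie near the offset, so ratios of dim probes understate differences. The arrays lay on 1 slide. Alternatives changed the background step, normalization, filter, probe rule, dye term and orientation, and left out each array. With an array left out, the dye term stayed, and the array alone in its dye orientation added nothing to the residual scatter. The fit was tested on simulated data.

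Probes were named through RefSeq symbols of Sscrofa11.1 (6700 of 43603). Genes given values were those past the nominal rule, per prefix the brightest and the one of lowest p, and those whose probes differed in sign with either at p under 0.05. Any other member with values was chosen after its values were seen. So was any gene of the lists that was given values without meeting the nominal rule. The members and lists were chosen with earlier results of these data known. Some members are counted but not reported singly here.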

Additional observations from a re-analysis of the deposited data

Results flagged for a closer look

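Among the 35 tested genes, 2 had 1 array set apart from the other 3 by a gap large against their whole range. S100A11 was at -0.85 on array 1, and VDAC3 was at 0.45 on array 1. Chance flags about 1 in 20 such groups of 4 values. Both came from array 1, whose cyclic channel had the highest share of probes above background, 66.5%, and whose pregnant channel had the lowest, 50.4%. The part of this difference in the 2 values was not tested.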

How the results depend on the processing

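No member passed the nominal rule under every setting tried, and TRPC7 was the only one past it in the main analysis. The number of member genes past the nominal rule was 3 with an offset of 10, 0 with median centring, 0 with a filter at all 8 channels (29 genes, without TRPC7), 2 with no filter, 2 if the dyes had run one way, 3 probes with every probe tested by itself and 2 with probes averaged, and between 2 and 3 when 1 array was left out. With background parameters from all spots the 1 gene was KCNG1 in place of TRPC7. Over all features, 1327 of 18887 met the rule in the main analysis, and 476 did with background parameters from all spots. An offset of 10 gave 1465, and median centring gave 1038. The filter at all 8 channels gave 1099 of 14798. With no filter it was 1722 of 35862, where 48 members were tested. Dyes run one way gave 1555, every probe by itself 1979 of 25196, and probes averaged 1349. Between 618 and 2180 features met the rule without 1 array. The adjusted threshold was passed by 2 features with an offset of 10, neither a member, and by 0 under the other settings, where limma called up to 2180 without adjustment. If the dyes had run one way, KCNN3 would be -0.30, past the nominal rule with the sign turned. Of the calls over all features, 41.7% were higher, against 19.6% with median centring, 30.7% with parameters from all spots, 57.4% without array 2, 30.3% without array 3 and 28.6% without array 4. Of the 35 members 12 stood above 0, against 20 if the dyes had run one way and 19 without array 3, and their median lay between -0.066 and 0.012 throughout. The cause was not tested. The ratios are paired by array, and no further block was fitted. With 4 arrays, dim probes near background limit what can be seen.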
